A study of Homo sapiens with 12 samples.

Results

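Untreated Hs294T and untreated WM9 melanoma cells were compared by RNA sequencing, with 3 control libraries of each line. These are 6 of the 12 libraries in the study, chosen by their labels alone. WM9 and Hs294T are human cell lines that the labels describe as metastatic melanoma cells. Both are labelled with the same BRAF genotype, p.Val600Glu, a valine-to-glutamate change. The WM9 control and Hs294T control cells were grown with rising amounts of the solvent dimethyl sulfoxide (DMSO) and received no inhibitor. The WM9 resistant and Hs294T resistant cells, used below as a second comparison of the same lines, were adapted to vemurafenib and cobimetinib up to 0.4 µM of each. Replicates are labelled as biological, but no label says whether they are separate cultures, passages or clones, so p-values measure the spread between these libraries.

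BRAF is a kinase of the RAS-RAF-MEK-ERK pathway, which passes growth signals from the cell surface to the nucleus. The labelled change keeps the kinase active without an upstream signal, and melanoma cells that carry it usually depend on MEK and ERK. Vemurafenib blocks the mutant BRAF and cobimetinib blocks MEK. Lines from different patients usually carry their own copy number changes and their own sets of expressed genes, so a contrast of untreated lines gives the baseline on which effects of resistance are read.

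The deposited table pairs no row with a gene name, so a feature is named by the number of its row below the header (row7149 and so on). No gene, pathway or sequence could be attached to a row, and the labelled cell type and line were not checked with markers. Levels are in CPM, the usual unit of counts relative to the effective size of a library. They do not correct for gene length and are compared only between libraries for 1 feature. Since the libraries are bulk samples, fewer cells of a kind and less RNA per cell cannot be told apart. The control libraries held 16817256 to 21925216 counts, and depending on the library a count of 3 was worth 0.126 to 0.163 CPM. Of 78932 rows, 18615 passed the low-count filter and were tested, and 60317 did not.

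The 6 control libraries did not sort cleanly by line. WM9 control 2 and WM9 control 3 were nearly the same library in their counts: only 3.26% of tested features lay at least 2-fold apart on the log2 CPM scale. A chi-square comparison of that pair averaged 2.93 per feature over 15567 features, where sampling noise alone gives about 1. The other pairs within WM9 control had 12.1% and 13.5% of features at least 2-fold apart. Within Hs294T control these shares were 11.4%, 15.8% and 23.9%. Among the 9 pairs that join the lines, the shares ran from 10.3% to 38.2%. The pair at 10.3% was WM9 control 1 with Hs294T control 1. Over all tested features these 2 libraries were closer by this measure than either was to the rest of its own line. By the Pearson correlation of log2 CPM the order was another for WM9 control 1, with 0.974 against 0.980 and 0.978 within its own group. Where levels averaged 10 CPM or above (8963 features), the 2-fold shares also placed WM9 control 1 nearer its own line. Its share was 3.09% with Hs294T control 1, against 1.97% and 2.76% with WM9 control 2 and 3. For Hs294T control 1 the order held, with 3.09% against 19.5% and 4.21% within its own line. The pair at 38.2% was WM9 control 1 with Hs294T control 2. Between WM9 resistant and Hs294T resistant libraries the shares over all tested features were larger, from 37.2% to 47.1%. The control groups were thus more alike than the resistant groups of the same lines, and the line labels were not checked.

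**Figure D1:**
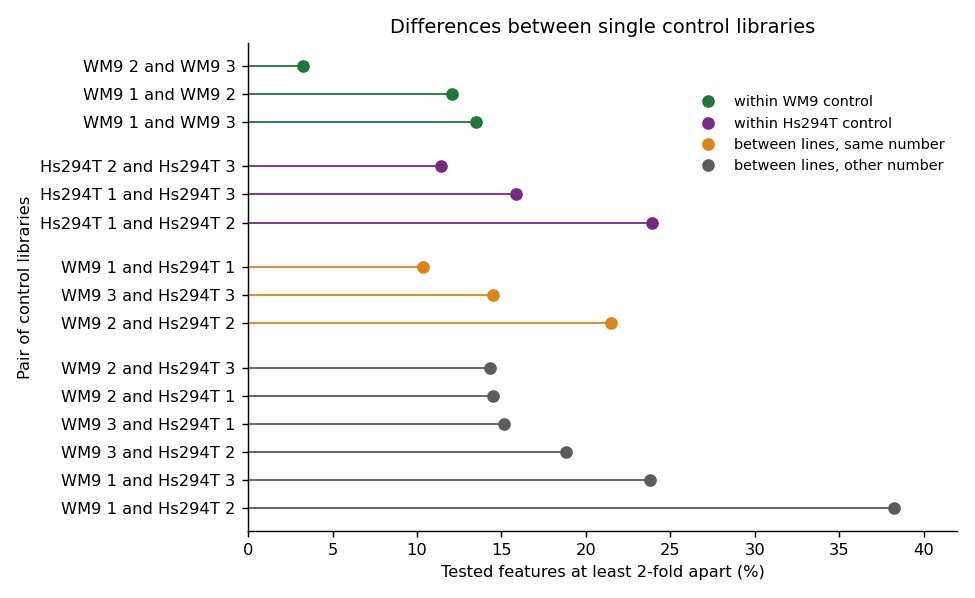
Share of the 18615 tested features that lay at least 2-fold apart (x axis, percent) for each of the 15 pairs of control libraries (y axis), coloured by kind of pair, with 1 point per pair. Pairs between lines overlap pairs within a line, from 10.3% for the libraries numbered 1 to 38.2%, and WM9 control 2 and 3 stand alone at 3.26%.

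The spread among the 6 libraries was divided by label. The label of line held 38.4% of the sum of squares of log2 CPM over all tested features, with 1 degree of freedom. The replicate number, 1 to 3, held 42.9% with 2 degrees of freedom, and the remaining 18.7% had 2. Among the 8963 features whose mean reached 10 CPM the shares were 41.0%, 40.7% and 18.3%. The share held by replicate number was thus close to that of line, over more degrees of freedom, although no label says that a number marks a shared batch or day.

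The libraries numbered 1 moved together in both lines. Library 1 was at least 2-fold above the mean of the other 2 in 1961 features in WM9 control and in 2045 features in Hs294T control, and 1082 features did so in both. The number at least 2-fold below in both was 33, and 41 features moved in opposite directions. Most of the 1961 and of the 1082 features had a mean below 10 CPM in the control groups. Of the 8963 features at or above 10 CPM, 177 lay at least 2-fold apart between WM9 control 1 and 2, and 247 between 1 and 3. Within Hs294T control these numbers were 1746 and 377, in either direction. Beside this, both libraries numbered 1 had more of their counts in rows that were not tested, with 0.381% in WM9 control 1 and 0.289% in Hs294T control 1 against 0.107% to 0.162% in the other 4. They also had larger trimmed mean of M-values (TMM) scaling factors, 1.37 and 1.25 against 0.848 to 1.11. The part of these measures in any result was not tested. Of the 1115 features that moved in the same direction in both lines, 7 were called between the lines, or 0.628%. Over all tested features the share called was 3.86%. A wide spread within groups lowers the chance of a call, so this low share follows in part from how those features were picked.

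The groups overlapped in each of 4 library measures. Rows with at least 1 count numbered 32311 ± 3388 in WM9 control and 29869 ± 3044 in Hs294T control (SD, n = 3; p = 0.4 in a two-sided exact permutation test). The 10 most abundant rows held 5.08% ± 0.21 and 5.46% ± 0.76 of the counts (SD, n = 3; p = 0.5, same exact permutation test). For the share in rows not tested p was 0.5, and for the log TMM factor 0.4, in the same exact permutation test. All 4 had an adjusted p of 0.5, and with 3 libraries a side this test cannot go below 0.1. Within pairs of the same replicate number, however, 3 of the 4 measures had one direction: rows with a count, the share in rows not tested and the TMM factor were larger in WM9 control than in Hs294T control in 3 of 3 pairs. An exact sign-flip permutation test over the 3 pairs gave p = 0.25 for each of these, the smallest it can give, and 0.5 for the share of the 10 most abundant rows. The part of these measures in the calls was not tested.

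Between the groups, 390 features were higher and 329 lower in Hs294T control than in WM9 control. Here and below, calls are those of the edgeR quasi-likelihood test at a Benjamini-Hochberg adjusted p under 0.05 over all 18615 features (n = 3 per group), and higher and lower are used for called features. The calls made up 3.86% of tested features, 2.10% higher and 1.77% lower. All but 2 of the 719 called features had no overlap between the 3 libraries of one line and the 3 of the other. Such separation was found in 22.8% of all tested features, with the Hs294T libraries above in 1915 and the WM9 libraries above in 2338, so most features with separate groups were not called. The 2 exceptions, named because they are so few, were row12420 and row25594. In row12420 the level of Hs294T control 1, 1.64 CPM, lay inside the WM9 range of 0.588 to 1.68 CPM (log2 fold change 2.21, edgeR adjusted p = 0.0498). In row25594 it was 2.18 CPM against a WM9 range of 1.76 to 2.43 CPM (log2 fold change 1.51, edgeR adjusted p = 0.0414).

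The number of calls changed with the treatment of the near-identical and the same-numbered libraries, and with the libraries left out. Hs294T resistant 2 and 3, which enter the common fit, were also nearly alike, with a mean chi-square of 3.08 per feature over 15745 features and 4.09% of tested features at least 2-fold apart. With each of these near-identical pairs summed to 1 library, 107 features were higher and 119 lower, and all 226 were among the 719. Summing also leaves fewer libraries, and the parts of near-identity and of library number in this fall were not told apart. With replicate number as a block in a fit of the control libraries alone, 1222 were higher and 979 lower, and 678 of the 719 were among these. That fit leaves only 2 residual degrees of freedom, so its counts are not on a par with the others. Its edgeR adjusted p for row77844 was 3.65e-83 (SE 0.36), against 3.16e-09 (SE 0.28) in the main fit. With the block in the fit of all 12 libraries, 264 were higher and 243 lower. Leaving out WM9 control 1, 2 or 3 or Hs294T control 2 or 3 gave 139 to 228 higher and 159 to 210 lower features. Without Hs294T control 1, 928 were higher and 467 lower. Without both control libraries numbered 1 the numbers were 463 and 241, and 516 of the 719 were among these. Calls made with all libraries and again without each of the 6 controls in turn numbered 245, with 127 higher and 118 lower.

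Called differences were large, in part because the test passes few small ones. The median SE over all tested features was 0.33 on the log2 scale. Of the calls, 358 higher and 294 lower features differed at least 2-fold, 129 and 154 at least 4-fold, and 48 and 80 at least 8-fold. The median absolute log2 fold change was 1.70 among called features and 0.37 among all tested ones. The smallest among called features was 0.71. A further 1609 features had a fitted difference of at least 2-fold but were not called. When the null hypothesis was a difference of up to 2-fold, 67 features were higher and 66 lower (edgeR's glmTreat, adjusted p below 0.05).

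A missed call does not show likeness, so intervals were counted as well. In 7568 features, 40.7% of those tested, the 95% interval of the log2 fold change (limma-voom) lay wholly within 2-fold in either direction. In 351 features it lay wholly beyond 2-fold. The other 10696 intervals crossed a 2-fold limit, and for these the data settle neither a 2-fold difference nor its absence. The median half-width of the interval was 0.70 on the log2 scale, and no adjustment for the number of intervals was made.

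What could be settled depended on abundance. Among 4566 features with a mean below 1 CPM in the control groups, 2.19% of intervals lay within 2-fold, against 32.1% of 5086 features at 1 to 10 CPM, 66.4% of 6926 at 10 to 100 CPM and 60.8% of 2037 at 100 CPM or more. The share of calls was 2.80%, 5.82%, 3.70% and 1.91% in the same order of classes. Called features of low abundance were more often lower in Hs294T, with 44 higher and 84 lower below 1 CPM. Called features of high abundance were more often higher in Hs294T, with 33 higher and 6 lower at 100 CPM or more. Under upper-quartile factors there were 37 higher and 78 lower features below 1 CPM and 34 and 7 at 100 CPM or more. Without Hs294T control 2 the split below 1 CPM was nearly even, at 30 higher and 40 lower, and the abundant class held 17 and 5. With the near-identical pairs summed the numbers were 18 and 33 below 1 CPM and 7 and 1 at 100 CPM or more. The difference between the classes was not tested.

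**Figure D2:**
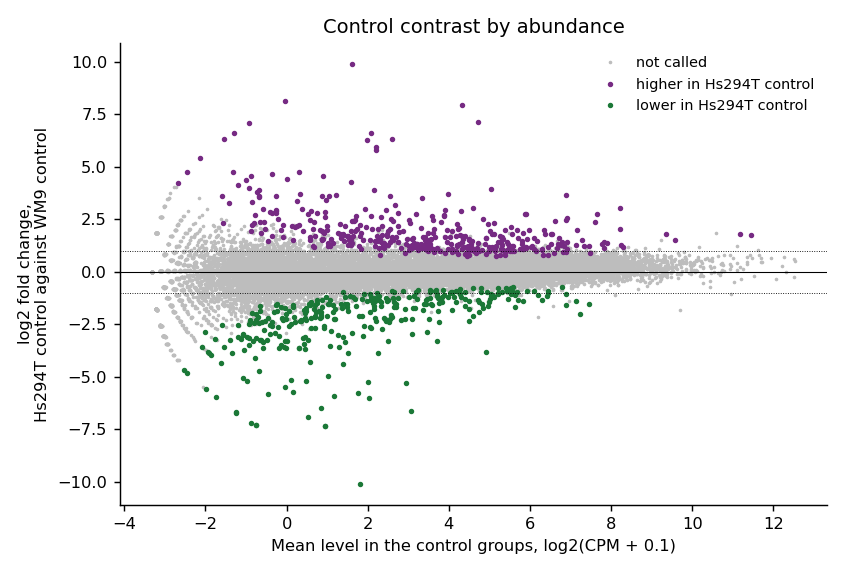
Log2 fold change of Hs294T control against WM9 control (y axis) by the mean level of the control groups (x axis, log2 of CPM + 0.1), with 1 point per tested feature and dotted lines at 2-fold. Of the called features 390 lie above and 329 below 0, and at 100 CPM or more 33 are higher and 6 lower.

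Switches from clear expression to near absence were rarer between the untreated lines than between the resistant groups. A feature was counted as on in a line when each of its 3 control libraries reached 10 CPM while none of the other line's controls exceeded 1 CPM, and 4 features met this, 2 in each line. These 4 were also the features with the largest fold changes in each direction among those called, not overlapping and with a higher group that averaged 10 CPM or more, of which there were 230 higher and 111 lower. Each was called under every one of 18 other settings of the test and the libraries. In the resistant libraries row7149 and row33132 were near absent from both lines. There row77844 was present in both lines and row61638 stayed higher in WM9. Between the resistant groups the same CPM limits gave 140 features on in Hs294T and 85 on in WM9. The few switches between the controls are therefore not a trait of the 2 lines in both states.

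The feature row7149 was found in Hs294T control libraries and was near absent everywhere else. It had 26.5, 43.3 and 49.3 CPM in the Hs294T controls and 0.336, 0 and 0.108 CPM in the WM9 controls. The 3 WM9 controls together held 10 counts and the 3 Hs294T controls 2440. The log2 fold change was 7.96 (SE 0.63, edgeR adjusted p = 1.01e-05, n = 3 per group). Its size rested on the few WM9 counts, 8 of them in WM9 control 1, and it was 9.47 without that library and 9.69 without both libraries numbered 1. In the resistant libraries its counts were 10, 4 and 7 in WM9 and 2, 1 and 5 in Hs294T, so the level of the Hs294T controls was not found in Hs294T resistant libraries. The resistant groups were not shown to differ (log2 fold change -1.55, SE 0.82, edgeR adjusted p = 0.143).

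The feature row77844 was near absent from WM9 controls and present in the other 3 groups. It had 0.378, 0.36 and 0.379 CPM in the WM9 controls and 47.0, 62.8 and 46.6 CPM in the Hs294T controls. The log2 fold change was 7.11 (SE 0.28, edgeR adjusted p = 3.16e-09, n = 3 per group), with a range over the other settings from 6.95 to 7.18. The WM9 resistant libraries had 86.6, 80.0 and 115.0 CPM and the Hs294T resistant libraries 164.0, 171.0 and 166.0 CPM. The resistant groups thus did not overlap, but differed by far less (log2 fold change 0.83, SE 0.20, edgeR adjusted p = 0.00361).

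The feature row33132 exceeded 1 CPM in WM9 controls alone. It had 19.2, 15.2 and 14.8 CPM in the WM9 controls and 0.178, 0.215 and 0.095 CPM in the Hs294T controls. The 3 Hs294T controls together held 10 counts and the 3 WM9 controls 1069. The log2 fold change was -6.61 (SE 0.46, edgeR adjusted p = 2.28e-06, n = 3 per group). Both resistant groups were near 0, with 0, 0 and 2 counts in WM9 and 1, 1 and 2 counts in Hs294T, too few for a comparison between them.

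The feature row61638 was higher in WM9 than in Hs294T in both states. It had 22.8, 10.4 and 11.3 CPM in the WM9 controls and 0.533, 0.377 and 0.19 CPM in the Hs294T controls, with WM9 control 1 above the other 2 of its group. The log2 fold change was -5.31 (SE 0.43, edgeR adjusted p = 1.02e-05, n = 3 per group). In resistant libraries it had 36.6, 34.4 and 27.6 CPM in WM9 and 3.06, 1.84 and 2.23 CPM in Hs294T, again without overlap (log2 fold change -3.78, SE 0.36, edgeR adjusted p = 1.22e-06).

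**Figure D3:**
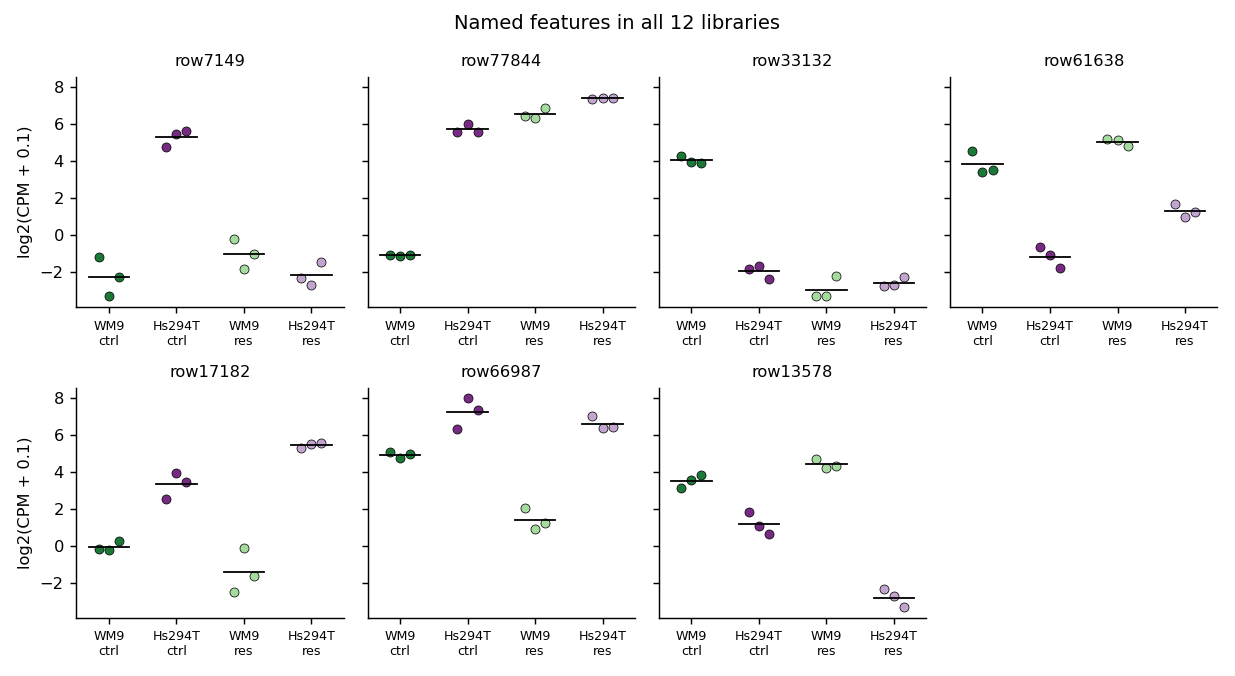
Levels of the 7 named features in all 12 libraries (y axis, log2 of CPM + 0.1; x axis, group), with 1 point per library, in the order of replicate numbers, and a bar at the mean of 3. row7149 is high in Hs294T controls only, row33132 in WM9 controls only, row77844 is low in WM9 controls only, and row61638 is higher in WM9 in both states.

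Whether a difference between the untreated lines recurred between the resistant lines was asked with a second contrast, Hs294T resistant against WM9 resistant, which shares no library with the first. In that contrast 3859 features (20.7% of those tested) were higher and 4044 (21.7%) lower, together 42.5%, by the same edgeR test. Of the 719 features called between the controls, 440 or 61.2% were also called between the resistant groups. The direction was the same for 195 of them and opposite for 245. The 195 are 27.1% of the control calls and 2.47% of the resistant calls. The 245 are 34.1% and 3.10%. The differences between untreated lines therefore did not keep a common direction in the resistant libraries.

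By direction, 97 of the 390 features higher in Hs294T control were also higher in Hs294T resistant, and 145 were lower. The median of their resistant log2 fold changes was -0.36. Of the 329 features lower in Hs294T control, 98 were also lower in Hs294T resistant and 100 were higher, with a median of -0.07. Over all tested features the median between resistant groups was 0.01. The median absolute value between resistant groups was 1.46 among the 719 and 0.75 among all tested features. Set against each other over the 719 features, the fold changes of the contrasts gave a Pearson r of 0.03 (Spearman rho -0.01), a description only, since features are no replicates.

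The excess of opposite over same directions depended on the libraries and the threshold. With the near-identical pairs summed, 73 had the same and 65 the opposite direction, and 84 and 82 did so when calls required an adjusted p under 0.01. With replicate number as a block in the control libraries alone they were 400 and 621, and in all 12 libraries 145 and 160. Leaving out 1 control library gave between 93 (without WM9 control 2) and 297 (without Hs294T control 1) with the same direction and between 104 and 498 with the opposite one, also without WM9 control 2 and without Hs294T control 1. Without Hs294T resistant 2 or 3 the opposite calls numbered 150 and 157.

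**Figure D4:**
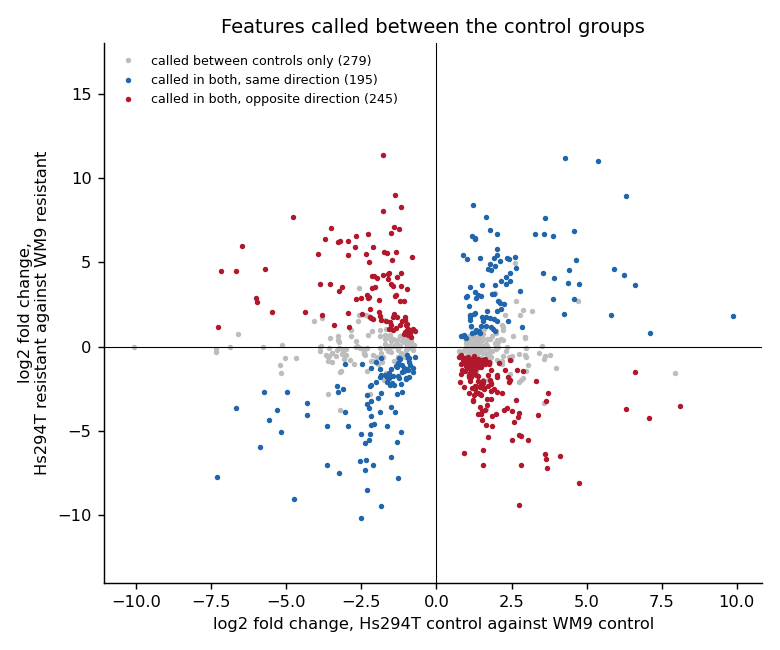
Log2 fold change between the resistant groups (y axis) against that between the control groups (x axis) for the 719 features called between the controls, with 1 point per feature. Of these, 195 lie in the same direction in both contrasts and are called in both, 245 are called in opposite directions, and 279 are called between controls only.

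All 195 features called in the same direction in both contrasts also had separate libraries in both. A further limit on level reduced this set. With 10 CPM or more on average in the higher group of each contrast, 35 were higher and 29 lower in Hs294T. Between the controls alone, 230 higher and 111 lower features met the conditions of call, separation and level. The leading 2 in each direction, ranked by whichever of their fold changes was closer to 0, were row17182 and row66987 (higher) and row61638 and row13578 (lower). row61638 is described above.

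The feature row17182 had 0.798, 0.765 and 1.08 CPM in the WM9 controls and 5.73, 15.4 and 10.8 CPM in the Hs294T controls. The Hs294T libraries lay above all WM9 libraries but varied widely (log2 fold change 3.59, SE 0.46, edgeR adjusted p = 0.000552, n = 3 per group). In resistant libraries it had 0.0768, 0.811 and 0.227 CPM in WM9 and 38.2, 45.3 and 46.6 CPM in Hs294T (log2 fold change 6.69, SE 0.53, edgeR adjusted p = 1.67e-07).

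The feature row66987 was expressed in both lines. It had 33.2, 27.1 and 30.9 CPM in the WM9 controls and 79.8, 250.0 and 163.0 CPM in the Hs294T controls, lowest in Hs294T control 1 (log2 fold change 2.43, SE 0.37, edgeR adjusted p = 0.0018, n = 3 per group). In resistant libraries it had 3.99, 1.8 and 2.27 CPM in WM9 and 128.0, 81.7 and 86.6 CPM in Hs294T (log2 fold change 5.23, SE 0.43, edgeR adjusted p = 2.72e-07).

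The feature row13578 had 8.61, 11.6 and 14.3 CPM in the WM9 controls and 3.42, 1.99 and 1.47 CPM in the Hs294T controls. WM9 control 1 and Hs294T control 1 were the closest to the other line (log2 fold change -2.32, SE 0.35, edgeR adjusted p = 0.00176, n = 3 per group), and without these 2 libraries the log2 fold change was -2.91. In resistant libraries it had 25.6, 18.4 and 19.7 CPM in WM9, while Hs294T held 3 counts in all. The ratio of WM9 to Hs294T resistant libraries was 402, with a 95% counting interval of 137 to 1951, which covers counting error only.

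The order of rows is the only annotation in the table, and calls were not spread evenly along it. Whether neighbouring rows are neighbours in the genome, or share reads, is not stated in the table. Of 76 pairs of neighbouring tested rows that were both called, 71 or 93.4% had the same direction, against 60.4% of all 18614 neighbouring tested pairs. These pairs held 139 of the 719 called features, and no neighbouring pair had identical counts in all libraries. Between the resistant groups the same share was 75.2% of 3810 called pairs. Features are not independent replicates, and these shares were not tested.

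Consecutive blocks of 100 tested rows were then described by their median. Over 186 full blocks the median log2 fold change ran from -0.56 to 0.57, and the 3 libraries of each line did not overlap in their block medians in 49 blocks or 26.3%. The highest median was in the block from row 35573 to row 35876, where the median deviations from the mean of the 6 libraries were -0.24, -0.30 and -0.27 in WM9 control and 0.07, 0.52 and 0.23 in Hs294T control on the log2 scale. It held 13 higher and 0 lower features, as did the block from row 25706 to row 25974 with a median of 0.34, while 2.10% of all tested features were higher. The other blocks with a median of at least 0.5 in size were lower in Hs294T, with medians of -0.53 (rows 5055 to 5552), -0.56 (rows 5920 to 6346) and -0.51 (rows 45101 to 45667). They held 1 higher and 2 lower, 0 and 5, and 2 and 5 called features, in the same order. In these 3 blocks and the one with the highest median, the medians between the resistant groups were -0.20, 0.07, 0.07 and 0.24 in that order. Across the 186 blocks the medians of the control and the resistant contrast had a Pearson r of -0.02. Of the 63 blocks with 5 or more called features, 11 held calls in a single direction.

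The libraries did not contribute equally to this profile. Block medians of Hs294T control 2 ran from -0.61 to 0.70 with an SD of 0.304 over the 186 blocks, and those of WM9 control 1 had an SD of 0.178. The SDs of the other 4 libraries lay between 0.0754 and 0.0969. These 2 libraries were also the pair with the most features at least 2-fold apart. The part of a single library in the block profile was not tested.

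**Figure D5:**
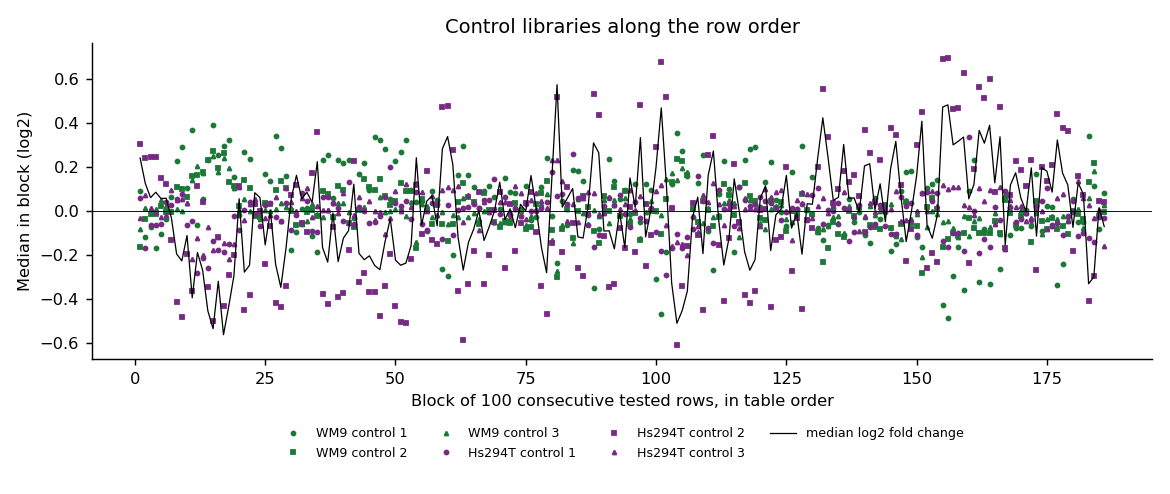
Median deviation of each control library from the mean of the 6 (y axis, log2; points, green for WM9 and purple for Hs294T) and median log2 fold change of the line contrast (black line) for 186 blocks of 100 consecutive tested rows (x axis, table order). Hs294T control 2 (purple squares) has the widest spread, an SD of 0.304, and the line reaches 0.57 in the block from row 35573 to row 35876.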

How the data were processed

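RNA from 12 samples was made into stranded mRNA libraries, per the labels. The authors deposited raw counts without normalization, 1 column per library. Tools named by the submitters' processing notes, with no roles, are STAR 2.7.11b, fastp 0.24.0, FastQC 0.12.1, Subread 2.0.8 and featureCounts, and the build is GRCh38; annotation and strandedness of counting: not given in the sources used here. Groups came from sample titles, and members, lists and tests were chosen with earlier results of these data known.

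Features were filtered with filterByExpr (minimum count 10), scaled by TMM and tested in edgeR 4.0.16 under R 4.3.3 (robust quasi-likelihood, two-sided), in 1 fit of 12 libraries and 4 groups with 8 residual degrees of freedom. Intervals are from limma 3.58.1 (voom), log2 CPM used a prior count of 2, and DESeq2 1.42.0 was an alternative. Others were scaling, filter, threshold, replicate block, summed pairs and leaving out libraries.

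Named features were called between controls, without overlap, with a mean of at least 10 CPM in the higher group: the 2 with the largest fold change in each direction, and the 2 each way that met this in both contrasts, ranked by the smaller fold change. A group of 5 or fewer is named in full.

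Deviations from group means correlated at 0.61, 0.30 and 0.12 between control libraries numbered 1, 2 and 3. The main fit did not pair the samples. The number entered only the division of the sum of squares, comparisons of same-numbered libraries, the sign-flip test and the block settings. No label says that a number pairs libraries. WM9 control 3 correlated more closely with Hs294T control 2, at 0.46.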

Additional observations from a re-analysis of the deposited data

Results flagged for a closer look

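The difference between the lines itself differed between resistant and control libraries for all 7 named features, in the interaction test of edgeR (quasi-likelihood, Benjamini-Hochberg adjustment over 18615 features). The features row7149, row77844, row33132 and row61638 were chosen for large differences between the controls, which by itself favours such a result. The others, row17182, row66987 and row13578, were chosen by the smaller of their fold changes in both contrasts. Because all were picked on these contrasts, no more is drawn from the count. For features lower in the resistant than in the control contrast, the change in log2 fold change was -9.51 (SE 1.05) for row7149, -6.28 (SE 0.34) for row77844 and -6.21 (SE 0.68) for row13578. It was 7.37 (SE 1.26) for row33132, 1.52 (SE 0.54, edgeR adjusted p = 0.0417) for row61638, 3.09 (SE 0.68) for row17182 and 2.80 (SE 0.53) for row66987. The values for row7149, row33132 and row13578 rest on resistant groups with few counts and depend on the prior count of the fit. Explanations were not tested.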

How the results depend on the processing

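All 7 named features kept their direction and call under 18 other settings each, with log2 fold changes of 7.38 to 9.69 (row7149), 6.95 to 7.18 (row77844), 3.23 to 3.89 (row17182), 2.00 to 2.83 (row66987), -6.84 to -6.35 (row33132), -5.70 to -4.86 (row61638) and -2.91 to -2.08 (row13578). For the called features of the control contrast, the numbers higher and lower were 739 and 546 with DESeq2, 151 and 126 at an adjusted p below 0.01, 236 and 215 with control libraries only, 107 and 119 with near-identical pairs summed, and 1222 and 979 with the replicate block in control libraries. Without 1 control library they ran from 139 to 928 and from 159 to 467. Those differing at least 2-fold were 150 higher and 124 lower at the stricter threshold, 107 and 119 with pairs summed, and 549 and 610 with that block; 551 were higher without a low-count filter, 230 higher with control libraries only, and 175 lower with at least 5 CPM in 3 libraries. Without 1 control library these ran from 139 to 757 and from 158 to 426. Calls in the same and the opposite direction between the resistant groups were 319 and 444 with DESeq2, 84 and 82 at the stricter threshold, 129 and 151 with control libraries only, 73 and 65 with pairs summed, and 400 and 621 with the block in control libraries; the block in 12 libraries gave 160 opposite calls. Without 1 library of any group they ran from 93 to 297 and from 104 to 498. Intervals within 2-fold numbered 14229 without a low-count filter, where 52409 rows were tested. The median correlation between control libraries of different lines was 0.970 and 0.942 where the mean reached 10 CPM. Features on in one line's controls and off in the other's numbered 12 when on meant 5 CPM and off 0.5 CPM, and 2 when they meant 20 CPM and 2 CPM. With near-identical pairs summed, the edgeR adjusted p-values of the 7 named features ran from 1.46e-06 (row77844) to 0.023 (row66987). In the main fit these 2 features had edgeR adjusted p-values of 3.16e-09 and 0.0018. For row17182 and row13578 the edgeR adjusted p with pairs summed was 0.00896 and 0.0128. The replicate block changed the call of no named feature. In control libraries alone the block leaves only 2 residual degrees of freedom, so its counts are not on a par with the others. The causes of these changes were not tested, beyond fewer libraries, fewer features or a stricter threshold where the setting itself brings them. Low counts limited the features below 1 CPM, where few intervals lay within 2-fold.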
